A study of Mus musculus with 2 samples.

Results

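Il17f single producers are cells that made interleukin-17F transcripts strongly while both Il17a and Ifng stayed low. They were 256 of the 1727 cells kept from a single-cell RNA sequencing experiment on mouse CD8 T cells polarised toward interleukin-17 production (Tc17 cells). A cell was chosen when Il17f reached at least 10 unique molecular identifiers (UMIs, each standing for 1 captured transcript) per 10000 UMIs of that cell, with Il17a and Ifng each under 10. Il2 was free to take any value. These 3 cytokine values chose the cells, so their levels are given below as a description and support nothing. Of the 256 cells, 95 came from the library labelled NFATc1_KO and 161 from the library labelled WT.

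The library labelled NFATc1_KO was made from mice in which floxed Nfatc1 alleles (Nfatc1 f/f) meet Cd4-Cre, a recombinase driven by the Cd4 promoter and active throughout the T-cell lineage, CD8 T cells included. The library labelled WT came from wild-type mice, and the strain is given as C57/B6N for both. In each case bead-isolated CD8 T cells from mesenteric lymph nodes were polarised with a Th17 cytokine kit and then given PMA (100 ng/ml) together with ionomycin (10 μg/ml) for 3 h, which mimics antigen receptor signalling. The sources used here give neither the number of mice, nor whether they were pooled, nor their age. With 1 library per genotype no test between genotypes was possible, and none was run between cell classes over the 2 libraries. No p-value is given, and every interval covers counting error over the cells or UMIs of these libraries only. Variation from cell to cell is not part of the intervals on folds.

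The libraries held 709 and 1018 kept cells (labelled NFATc1_KO and WT), with medians of 21436 and 20905 UMIs per cell, and shared 0 cell barcodes. Multiplexing tag CMO304 led in all 709 cells of the library labelled NFATc1_KO and tag CMO303 in all 1018 cells of the library labelled WT. Nfatc1 itself ran against the genotype label. In Il17f single producers it stood at 155 CPM (counts per 1000000 UMIs summed over the cells) in the library labelled NFATc1_KO and 40.4 CPM in the library labelled WT. UMIs of Nfatc1 were found in 86 of 95 and 65 of 161 of these cells. The kit reads transcripts near the 3′ end, and a tag that falls outside the deleted exons, which the sources used here do not name, checks nothing. Every direction between libraries below therefore rests on the labels.

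IL-17F and IL-17A are closely related secreted cytokines that pair with themselves or with each other and act on epithelial and stromal cells to call in neutrophils. Their genes are neighbours, and both are switched on with the help of the nuclear receptor RORα (Rora) and of NFAT and AP-1 factors that follow antigen receptor signalling. Tc17 cells are the CD8 counterpart of Th17 cells, and single cells of either kind can make one of these cytokines without the other.

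The promoter windows of the pair are printed because the cells were chosen by using one gene and not the other. Both lie on chromosome 1, where Il17a is annotated at 20730905 to 20734496 on the plus strand and Il17f at 20777146 to 20790617 on the minus strand (mm10, GENCODE M21), 42649 bases apart. The windows are RefSeq's on GRCm38.p6, chr1:20784221-20784520 (minus strand) for Il17f and chr1:20730655-20730954 (plus strand) for Il17a. Each runs 5′ to 3′ on the gene's own strand. Capitals mark matches on either strand to 4 short motifs, namely the NFAT core GGAAA, the AP-1 site TGANTCA, the ROR half-site AGGTCA and the TATA box TATAAA.
Il17f: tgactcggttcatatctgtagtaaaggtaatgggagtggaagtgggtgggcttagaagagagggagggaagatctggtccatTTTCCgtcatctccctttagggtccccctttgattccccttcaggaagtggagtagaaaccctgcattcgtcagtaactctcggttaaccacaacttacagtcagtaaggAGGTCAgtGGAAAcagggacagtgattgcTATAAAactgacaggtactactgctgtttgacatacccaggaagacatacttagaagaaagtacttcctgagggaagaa
Il17a: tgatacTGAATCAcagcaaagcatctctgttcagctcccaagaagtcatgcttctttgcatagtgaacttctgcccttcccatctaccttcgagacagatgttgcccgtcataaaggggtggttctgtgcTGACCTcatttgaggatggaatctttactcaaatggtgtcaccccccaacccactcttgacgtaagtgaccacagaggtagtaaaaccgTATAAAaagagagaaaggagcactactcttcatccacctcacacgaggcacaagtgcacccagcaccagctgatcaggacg
The Il17f window held 2 matches to the NFAT core and 0 to the AP-1 site, and the Il17a window held 0 and 1. Each held 1 ROR half-site and 1 TATA box. Of 32851 promoter windows of the same length, 61.3% held the NFAT core, 7.81% the AP-1 site, 16.3% the ROR half-site and 13.6% the TATA box. A match is a string of letters in this window and says nothing of binding, and the ROR half-site and the second NFAT core of Il17f lie 2 bases apart without overlap.

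Il17f single producers made up 13.4% of kept cells in the library labelled NFATc1_KO (exact Clopper-Pearson 95% interval 10.98 to 16.1%) and 15.8% in the library labelled WT (13.6 to 18.2%). The cells around them were shared out very differently. Il17a producers, the cells with Il17a of at least 10 and Ifng under 10, were 138 cells (19.5%) in the library labelled NFATc1_KO and 587 cells (57.7%) in the library labelled WT. Cells low for all 3 cytokines were 173 (24.4%) and 178 (17.5%), and cells with Ifng of at least 10 were 303 (42.7%) and 92 (9.04%). Read against all cells that made Il17f without Ifng, those without Il17a were 95 of 213 (44.6%, 37.8 to 51.5%) in the library labelled NFATc1_KO and 161 of 699 (23.0%, 19.96 to 26.3%) in the library labelled WT. The opposite uncoupling, Il17a without Il17f, was found in 20 of 138 Il17a producers (14.5%) and 49 of 587 (8.35%).

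The Il17f level of the chosen cells covered a wide range. In the library labelled NFATc1_KO it ran from 11.1 to 333 UMIs per 10000, with a median of 72.3 and middle values between 30.0 and 121 (quartiles). In the library labelled WT it ran from 10.6 to 249, with a median of 44.4 and quartiles of 25.6 and 83.0. Il17a producers had median Il17f levels of 83.3 (labelled NFATc1_KO, quartiles 44.4 and 158) and 99.6 (labelled WT, quartiles 54.1 and 163). In the library labelled WT the upper quartile of the chosen cells, 83.0, lay under that median. The rule set a lower limit on Il17f for the chosen cells only, so these levels are description. Il17a was near the level of cells that make none of these cytokines. Its median in Il17f single producers was 1.01 UMIs per 10000 in the library labelled NFATc1_KO and 1.04 in the library labelled WT, where low cells had 1.10 and 0.983 and Il17a producers 119 and 136. After every cell was thinned to 5000 UMIs, an Il17a UMI was present in 50.5% of Il17f single producers and 49.7% of low cells of the library labelled NFATc1_KO, and in 46.5% and 44.6% in the library labelled WT. Low cells were themselves chosen with Il17a under 10, free RNA was not measured, and such shares are not read as expression.

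Part of the chosen cells sat near the limits. Just inside the Il17f limit, between 10 and 20, were 17 cells labelled NFATc1_KO (17.9% of the chosen cells) and 29 labelled WT (18.0%). Just outside it, between 5 and 10 with the other cytokines low, were 7 and 19. Just inside the Il17a limit, between 5 and 10, were 5 (5.26%) and 17 cells (10.6%), and just outside it, between 10 and 20, were 10 and 16. Ifng between 5 and 10 was found in 5 and 3 of the chosen cells.

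**Figure D1:**
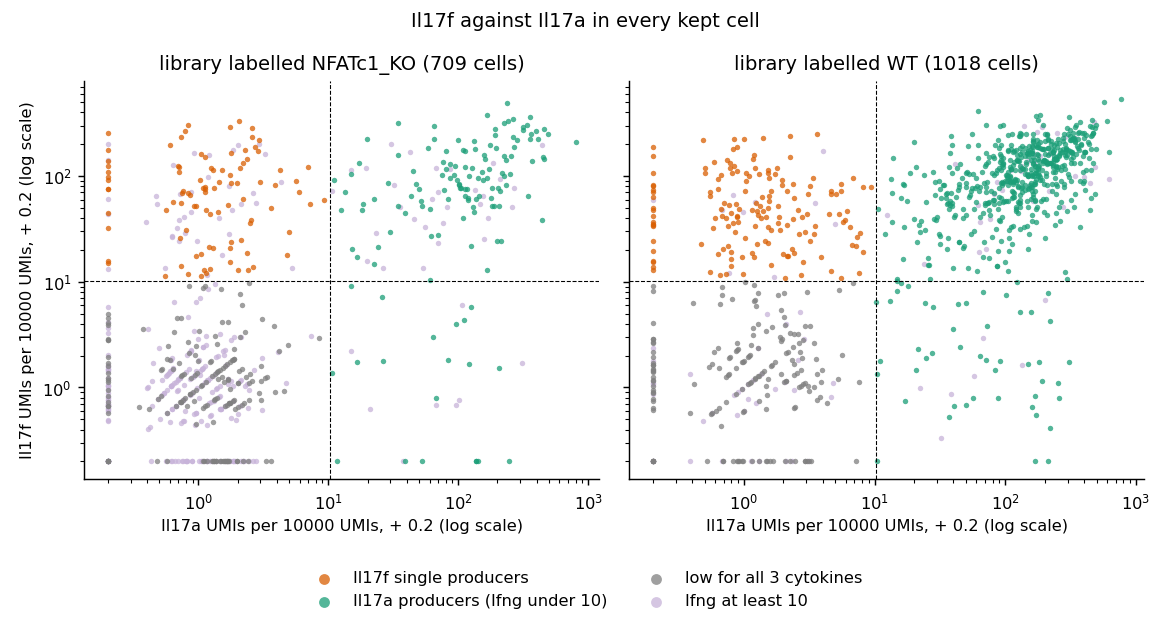
Il17f against Il17a in every kept cell, in UMIs per 10000 UMIs with 0.2 added so that zeros show (both axes log scale), for the library labelled NFATc1_KO (left, 709 cells) and the library labelled WT (right, 1018 cells). Dashed lines mark the limit of 10. The Il17f single producers lie at the upper left (95 and 161 cells) and the Il17a producers right of the vertical line, a split set by the rule. Near that line, 5 and 17 Il17f single producers had Il17a between 5 and 10. On its other side, 10 and 16 cells with Il17f of at least 10 and Ifng under 10 had Il17a between 10 and 20.

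The chosen cells carried the markers of CD8 T cells. Of 12 markers of CD8 T cells, 3 or more had UMIs in 95 of 95 cells labelled NFATc1_KO and 160 of 161 labelled WT. Most of the 12 are shared by all T cells, so that count alone does not mark CD8 cells. Cd8b1, the CD8 beta chain, had UMIs in 97.9% and 96.3% of cells, and Cd8a, the alpha chain, in 62.1% and 61.5%. Cd3e, a chain of the T-cell receptor complex, had UMIs in 90.5% and 92.5%. Of 5 CD4 T-cell markers, Cd4 (upper limits of 3.16% and 1.86% of cells with a UMI) and Foxp3 had 0 UMIs in both groups. Ctla4, which activated CD8 T cells also express, had UMIs in 42 of 95 and 55 of 161 cells, Cd40lg in 6 and 6, and Zbtb7b in 4 and 4. The summed list came to 73.4 and 60.4 CPM, against 125 and 115 CPM in Il17a producers. Innate γδ T cells are a well-known source of IL-17, so their markers were checked as well. Of 9 γδ T-cell markers, 5 were at 0 in each library, including Trdc (the δ chain constant region) in the library labelled WT, and Trdc had UMIs in 1 cell labelled NFATc1_KO. The summed γδ list came to 1.96 and 1.15 CPM, against 4.17 and 0.844 CPM in Il17a producers. Of 9 NK and NKT markers 6 were at 0, and of 13 myeloid and dendritic markers 11 and 9 were at 0. At least 3 of 9 B-cell markers were found in 1 cell labelled NFATc1_KO and in 0 labelled WT. Scrublet called 0 doublets among these cells. It called only 6 of 709 and 5 of 1018 kept cells in all, under its expected rate of 5%, so that 0 says little. Median depth was 19496 and 19273 UMIs in Il17f single producers, 20659 and 21754 in Il17a producers, and 18602 and 15166 in low cells. Counts of called genes after every cell was thinned to 5000 UMIs are given beside each comparison of Il17f single producers below.

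The comparison with Il17a producers asks what else differed between cells that used only one gene of the pair and cells that used Il17a. UMIs were summed per class and library and scaled to CPM, and a gene was called when it was at least 1.5-fold apart the same way in both libraries (on log2 of CPM + 1) with at least 20 CPM in 1 class of each. Of 5284 genes tested, 9 (0.170%) were higher in Il17f single producers in both libraries and 91 (1.72%) were lower, while 2 (0.0379%) went opposite ways in the 2 libraries. After thinning to 5000 UMIs, 30 genes were higher, 5 of them among the 9, and 61 were lower, 29 of them among the 91. In a sum over cells, fewer expressing cells and less RNA per cell cannot be told apart.

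The receptor genes Ccr6, Il1r1 and Il1r2 stood in Il17f single producers at levels between those of Il17a producers and low cells. Other receptors of type 17 cells did not all share this order, such as Il23r in the library labelled WT (below). Ccr6, the chemokine receptor that brings type 17 cells to sites making its ligand CCL20 (chromosome 17, 8236043 to 8257141, mm10), stood at 31.3 CPM in Il17f single producers, 51.7 CPM in Il17a producers and 4.78 CPM in low cells of the library labelled NFATc1_KO. In the library labelled WT the same classes had 38.4, 69.8 and 18.5 CPM. It was thus 1.65-fold lower than in Il17a producers (95% counting interval 1.24 to 2.23) and 1.82-fold lower (1.52 to 2.19), in the order of the labels NFATc1_KO and WT. Il1r1, the signalling receptor for interleukin-1 (chromosome 1, 40225080 to 40317257), had 29.4, 68.4 and 5.34 CPM in the same 3 classes of the library labelled NFATc1_KO. In the library labelled WT it had 17.2, 29.1 and 7.14 CPM. It was 2.33-fold (1.75 to 3.15) and 1.69-fold (1.29 to 2.26) lower than in Il17a producers. The decoy receptor Il1r2 (chromosome 1, 40074079 to 40125231), which binds interleukin-1 without signalling, followed the same order with 230, 568 and 80.7 CPM in the library labelled NFATc1_KO and 104, 181 and 32.1 CPM in the library labelled WT.

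Regulators of T-cell fate gave a different picture from these receptors. Rora (chromosome 9, 68653786 to 69388246) was close to Il17a producers in both libraries, with 478 and 384 CPM in the library labelled NFATc1_KO and 319 and 333 CPM in the library labelled WT. Low cells had 255 and 199 CPM of Rora. Ahr, a ligand-activated factor that shapes type 17 cells, had 136, 112 and 137 CPM in the library labelled NFATc1_KO and 76.1, 65.7 and 81.4 CPM in the library labelled WT, so the chosen cells lay between the other classes. Maf stood at 25.9 and 24.8 CPM in Il17f single producers and Il17a producers of the library labelled NFATc1_KO, and at 17.5 and 34.1 CPM in the library labelled WT. Tbx21, the type 1 regulator T-bet, was detected at 19.6 and 11.4 CPM in the library labelled NFATc1_KO and 34.6 and 23.7 CPM in the library labelled WT.

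Il23r, the receptor chain for the cytokine that maintains type 17 cells, was low throughout. It had 11.3, 41.5 and 7.87 CPM in Il17f single producers, Il17a producers and low cells of the library labelled NFATc1_KO, and 1.43, 6.55 and 1.95 CPM in the library labelled WT. UMIs came from 6 and 4 of the chosen cells. Il22 was detected in 0 chosen cells labelled NFATc1_KO (up to 1.47 CPM) and in 2 labelled WT (0.859 CPM). Il21, a cytokine that sustains type 17 cells in an autocrine way, stood at 37.7 and 28.7 CPM in the 2 producer classes labelled NFATc1_KO and at 31.5 and 38.7 CPM in those labelled WT.

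Of the 25 measured genes of the type 17 list (at least 5 CPM on average over the 4 class sums, with Il17a and Il17f left out), 8 were at least 1.5-fold lower in Il17f single producers in both libraries and 1 was higher. Over all 8611 measured genes the shares were 3.21% lower and 0.406% higher. After thinning, 4 of the 25 were lower, beside 348 of the 8611, and in cells under the median of S and G2/M UMIs 5 were lower. The higher gene was lost in those cells and without each gene's highest cell. The 8 lower genes were Ccr6, Il1r1, Il23r, Il18r1, Csf2, Ltb4r1, Tmem176a and Tmem176b, and the higher one was Il10. The list medians were -0.26 (labelled NFATc1_KO) and -0.10 (labelled WT) on the log2 scale, against -0.01 and 0.03 for all measured genes. Levels ordered as Il17a producers over Il17f single producers over low cells in both libraries were found for 5 of the 25 genes. Among them were Ccr6, Il1r1, Tmem176a and Tmem176b, and 4.85% of all measured genes showed that order. The reverse order in both libraries was found for 4 of the 25 genes and for 6.11% of all measured genes. By this order over 3 classes the list thus ran both ways, in 5 and 4 genes. Against Il17a producers alone it leaned lower, with 8 genes lower and 1 higher. Tmem176a and Tmem176b, a pair of membrane channel genes found in type 17 lymphocytes, had 150 and 70.4 CPM in Il17f single producers against 236 and 113 CPM in Il17a producers of the library labelled NFATc1_KO. In the library labelled WT they had 119 and 73.0 CPM against 199 and 112 CPM.

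**Figure D2:**
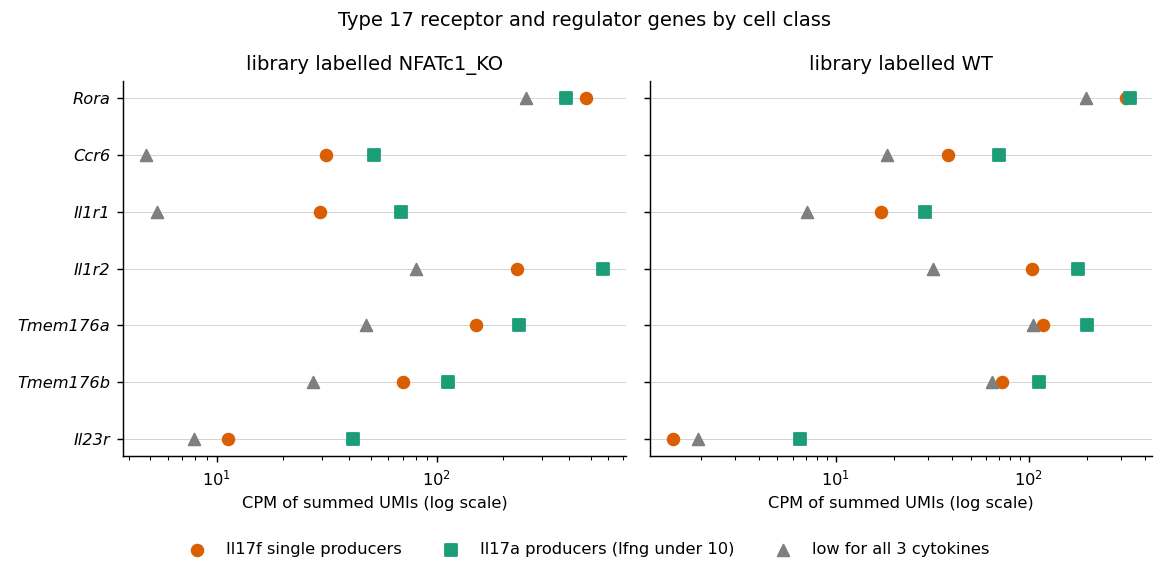
CPM of summed UMIs (log scale) for 7 type 17 receptor and regulator genes in Il17f single producers (circles), Il17a producers (squares) and low cells (triangles), with the library labelled NFATc1_KO on the left and the library labelled WT on the right. Circles lie between triangles and squares for Ccr6, Il1r1, Il1r2, Tmem176a and Tmem176b in both libraries, while Rora of the chosen cells is beside or above the squares, with 478 and 384 CPM on the left and 319 and 333 CPM on the right.

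The 9 genes higher in Il17f single producers were Ccl5, Il10, Epcam, Ifi47, Cd7, Id3, Hmgcs1, Sqle and Igf2r. Epcam, an adhesion molecule, had 55.3 and 19.2 CPM in Il17f single producers and Il17a producers of the library labelled NFATc1_KO and 38.9 and 18.0 CPM in the library labelled WT, a 2.88-fold (2.12 to 3.94) and 2.17-fold (1.75 to 2.67) difference carried by 32 of 95 and 54 of 161 cells. Id3, an inhibitor of E proteins linked to memory-type CD8 T cells, had 51.9 and 32.8 CPM in the library labelled NFATc1_KO and 188 and 113 CPM in the library labelled WT. Low cells had more of it, with 65.5 and 227 CPM. Hmgcs1 and Sqle, enzymes of cholesterol synthesis, were 1.59-fold and 1.70-fold higher in the library labelled NFATc1_KO and 1.88-fold and 1.57-fold higher in the library labelled WT. In the library labelled NFATc1_KO the log2 ratio of Hmgcs1 was 0.64, against 0.23 with the mean of per-cell CPM and -0.19 after thinning, which ends its call.

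Several of the other higher genes rested on few cells. Il10, the anti-inflammatory cytokine, stood at 50.9 CPM in Il17f single producers and 10.3 CPM in Il17a producers of the library labelled NFATc1_KO, and at 52.1 and 22.2 CPM in the library labelled WT. Only 11 and 12 of the chosen cells had Il10 UMIs, and a single cell held 53.8% and 65.4% of them. Without each gene's highest cell, a setting chosen after the data were seen, the Il10 ratio in the library labelled WT was 0.07 on the log2 scale, against 1.20 with it. Ccl5, a chemokine of effector CD8 T cells, had 70.4 and 24.8 CPM in the library labelled NFATc1_KO and 55.5 and 15.8 CPM in the library labelled WT, from 17 and 16 chosen cells. With the highest cells left out, 3 genes were higher in both libraries in place of 9.

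Most called genes were on the lower side, and genes of dividing cells were prominent among them. Of 27 measured genes of the G2/M list, 25 were at least 1.5-fold lower in Il17f single producers in both libraries and 0 were higher, with medians of -2.22 (labelled NFATc1_KO) and -1.13 (labelled WT). Of 29 S-phase genes 15 were lower and 0 higher, with medians of -0.82 and -0.61. Over all measured genes 3.21% were lower. After thinning 17 of the G2/M genes and 7 of the S-phase genes were lower, and with the mean of per-cell CPM 17 and 6. Among the 91 lower genes over the floor of 20 CPM, 23 (25.3%) stood on the S or G2/M lists. Of all 8611 measured genes, 29 and 27 stood on these lists. Another 7 of the 91 (7.69%) were histone genes, whose share among all tested genes was not counted. Mki67, the common proliferation marker, had 21.04 and 70.9 CPM in Il17f single producers and Il17a producers of the library labelled NFATc1_KO and 16.3 and 45.2 CPM in the library labelled WT. Top2a, the topoisomerase of dividing cells, had 24.5 and 110 CPM in the library labelled NFATc1_KO and 41.8 and 103 CPM in the library labelled WT. Low cells stood between them, with 39.4 and 30.2 CPM of Mki67.

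The classes differed in the cells richest in these transcripts. After thinning to 5000 UMIs, G2/M genes took 0.02% of UMIs in the median cell of every class in both libraries, which is 1 UMI and cannot resolve a difference. At the 90th percentile they took 0.06% in Il17f single producers and 0.20% in Il17a producers of the library labelled NFATc1_KO, and 0.08% and 0.22% in the library labelled WT. Low cells had 0.12% and 0.10%. With both classes limited to cells under the median of S and G2/M UMIs, a setting chosen after the data were seen that removes by construction most of the difference in these lists, 14 genes were lower in both libraries, 6 of them among the 91.

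**Figure D3:**
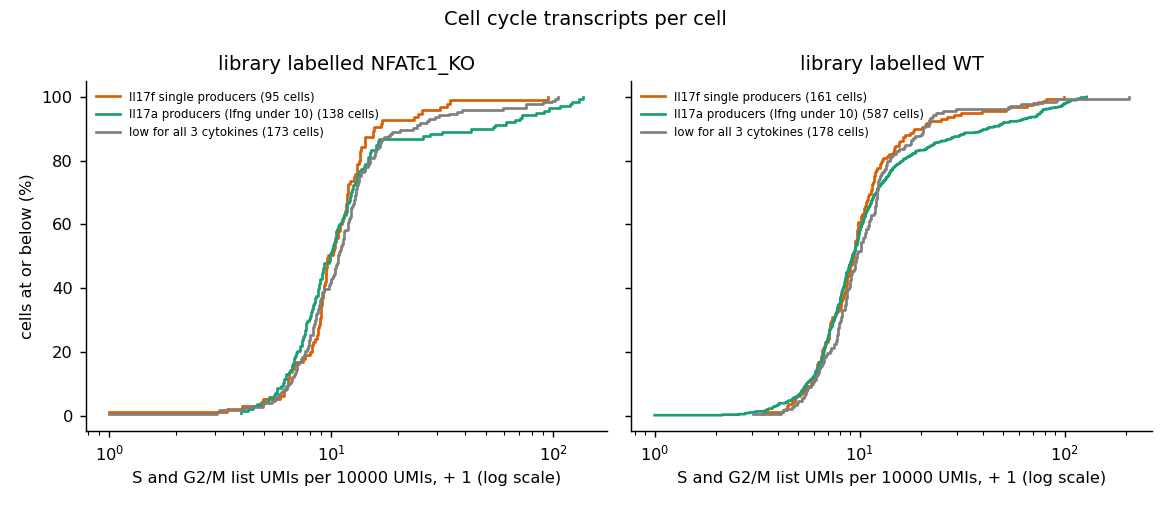
Share of cells (%) at or below each level of S and G2/M list UMIs per 10000 UMIs (1 added, log scale), for Il17f single producers, Il17a producers and low cells, with the library labelled NFATc1_KO on the left and the library labelled WT on the right. The 3 curves run close together up to the middle, and the Il17a producers have the longer upper tail, as the 90th percentiles of G2/M genes show (0.06% and 0.20% of UMIs on the left, 0.08% and 0.22% on the right).

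Other lower genes came from no single list, and some rested on few cells. Csf2, the cytokine GM-CSF, had 5.87 and 86.5 CPM in Il17f single producers and Il17a producers of the library labelled NFATc1_KO and 10.3 and 93.2 CPM in the library labelled WT, but 54.3% and 64.3% of the Il17a producers' UMIs came from 1 cell. Gzmc, a granzyme, had 1.47 and 62.6 CPM and 1.15 and 57.4 CPM in the same order, with 87.1% and 87.8% in 1 cell. Cd40lg, the helper ligand CD154, stood at 20.5 and 45.9 CPM in the library labelled NFATc1_KO and 14.6 and 37.5 CPM in the library labelled WT. Ctla4, an inhibitory receptor, had 49.4 and 76.5 CPM and 44.7 and 73.3 CPM in that order.

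Few genes of the other lists passed against Il17a producers, where 0.406% of all measured genes were higher and 3.21% lower. Of 38 early activation genes 0 were higher and 0 lower in both libraries, with medians of 0.17 and 0.05, and of 21 NFAT and calcineurin genes 0 were higher and 1 lower (-0.03 and 0.07). The inositol trisphosphate receptor Itpr1, which releases calcium from stores, had 66.5 and 142 CPM in the library labelled NFATc1_KO and 39.8 and 58.9 CPM in the library labelled WT. Nfatc1 was level between the classes, with 155 CPM in both producer classes labelled NFATc1_KO and 40.4 and 36.1 CPM in those labelled WT. Of 13 costimulatory receptor genes 0 passed in either direction, and their medians were -0.30 and -0.24. Tnfrsf4 (OX40) had 325 and 608 CPM in the library labelled NFATc1_KO and 248 and 327 CPM in the library labelled WT. Of 24 sterol and lipid synthesis genes 2 were higher and 0 lower, 14 lay above 0 in both libraries, and the medians were 0.05 and 0.54. Of all 8611 measured genes, 2874 lay above 0 in both libraries. Of 15 genes of the ATF4 and amino acid supply list 0 passed, while 7 (46.7%) had the order Il17a producers over Il17f single producers over low cells in both libraries, among them Trib3, Chac1 and Psat1. That order was found for 4.85% of all measured genes.

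**Figure D4:**
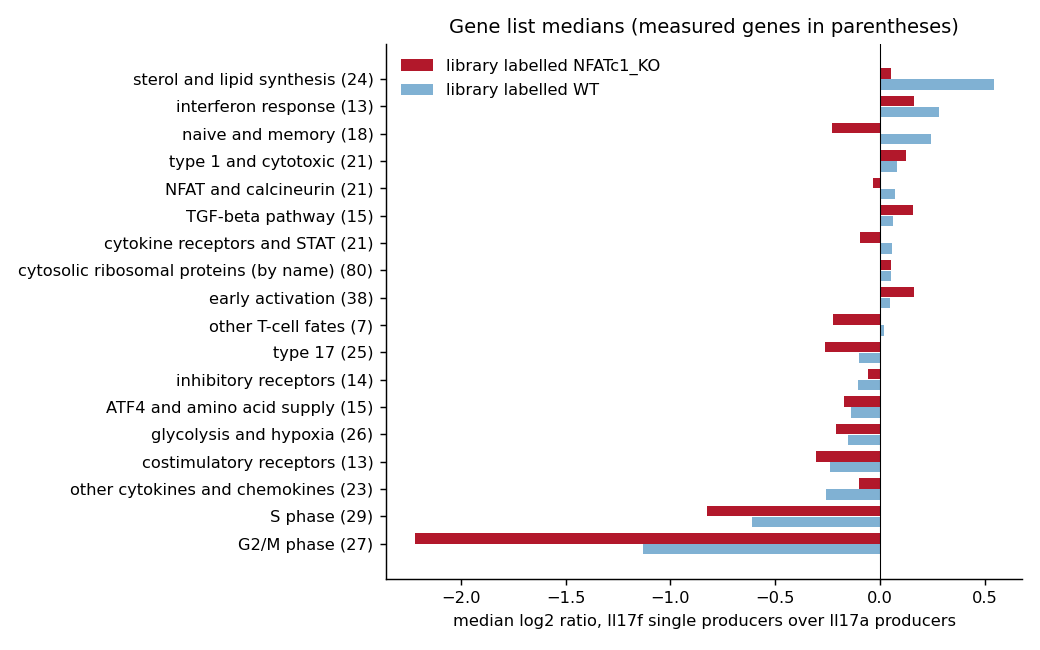
Median log2 ratio of Il17f single producers over Il17a producers for each gene list, with the number of measured genes in parentheses. For each list the upper bar is the library labelled NFATc1_KO and the lower bar the library labelled WT. G2/M (-2.22 and -1.13) and S phase (-0.82 and -0.61) lie far to the left, and sterol and lipid synthesis reaches furthest to the right in the library labelled WT (0.05 and 0.54).

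Against low cells, 4 of the 25 type 17 genes were at least 1.5-fold higher in Il17f single producers in both libraries and 2, Il6ra and Socs3, were lower. Over all 8611 measured genes the shares were 0.720% higher and 2.30% lower. Of 5328 genes tested over the floor of 20 CPM, 21 (0.394%) were higher and 74 (1.39%) lower in both libraries. After thinning to 5000 UMIs, 49 genes were higher, 14 of them among the 21, and 186 were lower, 52 of them among the 74. The 21 higher genes included Ccr6 and Rora of the type 17 list, and Il1r2, Xbp1 and Cd160 from outside it. Xbp1, a factor of the secretory pathway, had 118 and 60.4 CPM in Il17f single producers and low cells of the library labelled NFATc1_KO and 135 and 78.5 CPM in the library labelled WT. Cd160, an inhibitory receptor, had 771 and 414 CPM in the library labelled NFATc1_KO and 98.8 and 47.0 CPM in the library labelled WT.

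Lower than in low cells were 8 of 18 measured naive and memory genes and 0 were higher, with medians of -1.08 (labelled NFATc1_KO) and -0.45 (labelled WT). Over all measured genes 2.30% were lower and 0.720% higher. Of those 18 genes 6 had the reverse order, low cells over Il17f single producers over Il17a producers, in both libraries, as did 9 of the 38 early activation genes and 6.11% of all measured genes. Ccr7, the lymph node homing receptor, had 9.29 and 49.8 CPM in Il17f single producers and low cells of the library labelled NFATc1_KO and 33.2 and 72.3 CPM in the library labelled WT. Klf2, which keeps T cells quiescent, had 2.45 and 33.2 CPM and 9.73 and 21.7 CPM in that order. Among 38 early activation genes 5 were lower, led by Fos with 12.7 and 103 CPM in the library labelled NFATc1_KO and 4.01 and 103 CPM in the library labelled WT. Zfp36, which speeds the decay of cytokine transcripts, had 8.32 and 28.7 CPM and 6.58 and 30.2 CPM.

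Il2 was left free by the rule, and the chosen cells held it in unequal shares in these 2 libraries. Il2 reached at least 10 per 10000 in 69 of 95 Il17f single producers labelled NFATc1_KO (72.6%, 62.5 to 81.3%) and in 79 of 161 labelled WT (49.1%, 41.1 to 57.1%). These intervals treat each library as given and say nothing of the spread between cultures. In Il17a producers the shares were 68.8% and 63.2%, and in low cells 55.5% and 43.8%. The median Il2 level of Il17f single producers was 47.3 per 10000 in the library labelled NFATc1_KO and 9.71 in the library labelled WT, against 35.9 and 31.1 in Il17a producers.

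Within the chosen cells, those with Il2 carried more Tnf, Nr4a3, Tnfsf9 and Gch1, and those without it more Ccr6, Maf and Cd74. Of 5293 genes tested, 68 (1.28%) were higher in cells with Il2 of at least 10 than in cells under 10 in both libraries and 151 (2.85%) were lower. After thinning to 5000 UMIs, 146 genes were higher, 32 of them among the 68, and 275 were lower, 46 of them among the 151. Tnf had 601 and 178 CPM in cells over and under this Il2 limit in the library labelled NFATc1_KO and 479 and 181 CPM in the library labelled WT. Nr4a3, an early response factor of antigen receptor signalling, had 336 and 152 CPM in the library labelled NFATc1_KO and 68.0 and 27.8 CPM in the library labelled WT. Tnfsf9, the ligand 4-1BBL, had 149 and 62.5 CPM and 42.5 and 16.2 CPM, and Gch1, the first enzyme of tetrahydrobiopterin synthesis, had 671 and 313 CPM and 288 and 102 CPM in that order. In the other direction, Ccr6 had 11.97 CPM over the Il2 limit and 75.4 CPM under it in the library labelled NFATc1_KO, and 13.6 and 63.6 CPM in the library labelled WT. Its UMIs came from 8 and 9 cells in the library labelled NFATc1_KO and from 12 and 30 in the library labelled WT. Maf had 16.2 and 48.1 CPM and 8.50 and 26.6 CPM, and Cd74, the MHC class II invariant chain, 7.04 and 36.9 CPM and 18.1 and 71.7 CPM. Il1r2 ran the opposite way to Ccr6, with 264 and 152 CPM in the library labelled NFATc1_KO and 126 and 81.6 CPM in the library labelled WT. TMM scaling gave 123 higher and 81 lower genes for this split, so the excess of lower genes depends on the scaling.

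Between the libraries, Il17f single producers labelled NFATc1_KO had 231 genes (4.04% of 5714 tested) at least 2-fold higher than those labelled WT and 167 (2.92%) at least 2-fold lower, with at least 20 CPM in 1 library. The same rule over Il17a producers gave 217 higher (3.76% of 5769) and 82 lower (1.42%). The lists shared 132 higher genes, 57.1% of the list of Il17f single producers and 60.8% of that of Il17a producers, and 59 lower genes, 35.3% and 72.0%. The 2 classes come from the same 2 libraries, so shared genes also carry whatever set these libraries apart. After thinning to 5000 UMIs, the rule gave 434 higher genes in Il17f single producers, 181 of them among the 231. It gave 290 lower genes, 120 of them among the 167.

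Several cytokine and chemokine genes were higher under the NFATc1_KO label. Of 23 measured genes of the list of other cytokines and chemokines, 12 were higher and 2 lower by 2-fold or more in Il17f single producers, with a median of 1.14. Il17a producers were similar, with 11 higher, 2 lower and a median of 0.88, beside 3.47% and 1.75% of all their measured genes. Over all measured genes of Il17f single producers 4.39% were higher and 4.39% lower, with a median of 0.05. The values that follow are of Il17f single producers. Xcl1, the chemokine that attracts cross-presenting dendritic cells, had 17192 CPM in the library labelled NFATc1_KO and 3121 CPM in the library labelled WT, and Ccl4 had 18894 and 4168 CPM. Areg, the growth factor amphiregulin, had 114 and 9.45 CPM, a 12.1-fold difference (8.36 to 17.9) from 35 of 95 and 13 of 161 cells. Among genes outside that list, Jaml, an adhesion molecule of T cells in epithelia, had 217 and 15.5 CPM, from 57 and 22 cells. Adamts6, a secreted protease, had 342 and 33.5 CPM (10.2-fold, 8.40 to 12.5), from 67 and 33 cells. Gata3, the type 2 regulator, had 46.0 and 8.59 CPM.

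Other high ratios came from few cells. Gzmb, granzyme B, had 187 CPM in the library labelled NFATc1_KO and 2.58 CPM in the library labelled WT, but UMIs were found in 10 and 9 cells and 1 cell held 53.1% of the first sum. Ccl1 had 133 and 2.58 CPM with 84.6% in 1 cell, and the single cell with Pkd1l2 UMIs held all of its 20.5 CPM in the library labelled NFATc1_KO. Mpzl2 had 25.9 CPM from 8 cells labelled NFATc1_KO and 0 UMIs in the library labelled WT (up to 0.859 CPM), and Hlf had 34.7 and 0.573 CPM from 6 and 2 cells. In Il17a producers Hlf ran the other way, with 5.29 and 19.99 CPM.

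Lower under the NFATc1_KO label were AA467197, Upp1, Il24, Mmp10, Plac8, Serpinb9, Ntrk3 and Batf3. AA467197, known as NMES1, had 36.2 CPM in the library labelled NFATc1_KO and 410 CPM in the library labelled WT, an 11.3-fold difference (8.96 to 14.5) seen in 31 of 95 and 135 of 161 cells. Upp1, which breaks down uridine, had 14.7 and 142 CPM. Il24, a cytokine of the interleukin-10 family, had 0 UMIs (up to 1.47 CPM) and 37.2 CPM, the second value from 11 cells. Batf3, an AP-1 family factor, had 3.91 and 41.8 CPM. Of 24 sterol and lipid synthesis genes 1 was higher and 16 were lower by 2-fold or more in Il17f single producers, with a median of -1.27, where Il17a producers had 0 and 8 with a median of -0.88. Over all measured genes of Il17a producers 3.47% were higher and 1.75% lower. Msmo1, an enzyme late in cholesterol synthesis, had 28.4 and 148 CPM, and Fdps, a prenyl synthesis enzyme, 29.8 and 160 CPM. Of 18 naive and memory genes 0 were higher and 7 lower (median -0.95), against 0 and 2 in Il17a producers (0.06). Id3 had 51.9 and 188 CPM and Ccr7 9.29 and 33.2 CPM.

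**Figure D5:**
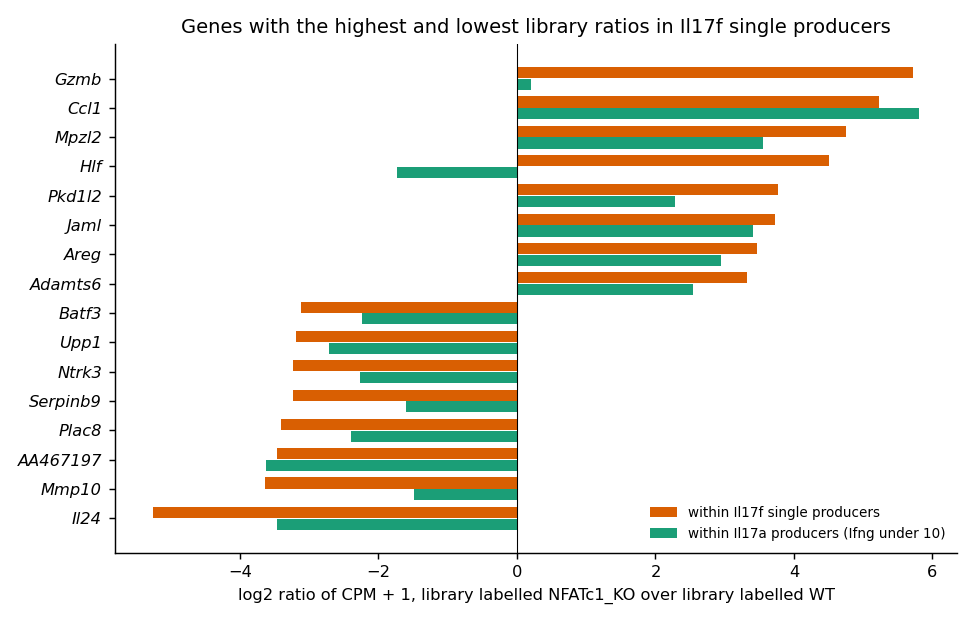
Log2 ratio of CPM + 1, library labelled NFATc1_KO over library labelled WT, for the 8 genes with the highest and the 8 with the lowest ratio within Il17f single producers (upper bar of each pair) beside the same ratio within Il17a producers (lower bar). Jaml, Areg, Adamts6, AA467197 and Upp1 point the same way in both classes. Gzmb stands far out in Il17f single producers (187 and 2.58 CPM) and near 0 in Il17a producers (21.4 and 18.5 CPM), and Hlf runs the other way there.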

How the data were processed

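As deposited by the authors, the values are raw counts of UMIs for 32285 genes and 12 multiplexing tags in each barcode, in 1 matrix a library. The file headers name Cell Ranger 7.0.0, and the submitters' processing notes name mm10 as the build; whether introns were counted is not stated there. A barcode was kept with 500 genes or more and mitochondrial UMIs of 10% or less, tags excluded. The cells, gene lists and comparisons were chosen with earlier results of these data known.

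Counts were summed per class and library and scaled to CPM. In Il17f single producers 1 UMI is 0.489 CPM (labelled NFATc1_KO) or 0.286 CPM (labelled WT), and a count of 0 allows 3 counts, 1.47 or 0.859 CPM. Log2 ratios used CPM + 1, which understates low genes, and folds are plain CPM ratios. Intervals are 95%, exact binomial for shares and conditional binomial for ratios; UMIs in 1 cell are not independent. Named genes are Il17f, Il17a, Ifng, Il2, Nfatc1, the leading called genes of each comparison, the 2 highest and 2 lowest of each list and 11 type 17 or opposing fate genes; a few other list members, Il1r2 and the 2 genes called opposite ways were named after their values were seen. A few of these genes are not reported here. Alternatives were other thresholds, filters, floors, pseudocounts and folds, thinning, TMM scaling, per-cell means, doublets left out (Scrublet in scanpy 1.11.5, expected rate 5%), and 2 settings chosen after seeing the data. Tools were Python 3.11.15, NumPy 2.4.6, SciPy 1.17.1, pandas 2.3.3, R 4.3.3 and edgeR 4.0.16. The calling code was tried on simulated sums without variation between cells, with changes set only in genes well over the floor. That trial says nothing of calls that rest on few cells or lie near the floor.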

Additional observations from a re-analysis of the deposited data

Results flagged for a closer look

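Of the 5284 genes compared between Il17f single producers and Il17a producers, 2 (0.0379%) were called in opposite directions in the 2 libraries, and the difference between the libraries was not tested. Ccl20, the ligand of Ccr6, had a log2 ratio of -3.25 in the library labelled NFATc1_KO (19.1 and 190 CPM) and 2.05 in the library labelled WT (46.9 and 10.6 CPM). In Il17f single producers its UMIs came from 2 and 7 cells, 94.9% and 95.7% of them from 1 cell. Sntb1, a syntrophin that anchors membrane proteins, had ratios of -1.07 (11.3 and 24.8 CPM, from 15 and 27 cells) and 1.12 (26.9 and 11.9 CPM, from 28 and 72 cells).

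Barcodes left out for more than 10% mitochondrial UMIs also held cells that met the cytokine rule. They were 5 of 36 (13.9%, 4.67 to 29.5%) in the library labelled NFATc1_KO and 21 of 112 (18.75%, 11.997 to 27.2%) in the library labelled WT. The signal was singled out because these barcodes enter no comparison, and both intervals hold the share among kept cells.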

How the results depend on the processing

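No paired analysis of the genotypes was possible because each genotype is 1 library without a replicate number, and for the same reason no library could be left out. Classes were set side by side within each library, with no test. The share of Il17f single producers ran from 12.7 to 13.8% (labelled NFATc1_KO) and from 14.8 to 16.004% (labelled WT) over its 6 alternatives. Counts of called genes moved more. Floors and folds by construction change how many genes can pass; for the other settings the cause was not tested. Counts are given as higher and lower genes. Over Il17a producers (9 and 91), a floor of 50 CPM gave 4 and 33, no floor 97 and 568, a fold of 2 gave 3 and 44, cells under the median of S and G2/M UMIs 20 and 14, thinning gave 30 higher, leaving out highest cells 3 higher, and the mean of per-cell CPM 35 lower. Over low cells (21 and 74), the per-cell mean gave 39 and 129, no floor 158 and 665, thinning 49 and 186, a fold of 2 gave 3 and 16, classes further apart 13 higher and a floor of 50 CPM 31 lower. For the Il2 split (68 and 151), TMM gave 123 and 81, a floor of 50 CPM 38 and 41, no floor 525 and 1070, thinning 146 and 275, a fold of 2 gave 11 and 22, and low-cycling cells 127 higher. Between libraries (231 and 167), a floor of 50 CPM gave 141 and 86, no floor 722 and 944, thinning 434 and 290, and low-cycling cells 357 lower. Of 317 log2 values recomputed for 37 genes, 236 stayed near, 72 moved and 9 turned round. In low-cycling cells these were Ccdc34 (0.97) and Lig1 (0.85) in the library labelled WT, Smc2 (0.36) and Ifi47 (-0.26) in the library labelled NFATc1_KO, and Ccl1 (-0.59), Gzmb (-0.17) and Pkd1l2 (-1.16) between libraries. Pkd1l2 was also -0.36 without its highest cell, and Hmgcs1 was -0.19 in the library labelled NFATc1_KO after thinning.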

Other observations

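Some genes of the interferon response were higher in Il17f single producers than in Il17a producers. Of 13 measured genes 3 were at least 1.5-fold higher in both libraries and 0 were lower, with medians of 0.16 (labelled NFATc1_KO) and 0.28 (labelled WT) on the log2 scale. Over all measured genes 0.406% were higher and 3.21% lower. The call was lost with classes further apart and in cells under the median of S and G2/M UMIs (0 genes higher in each), and 1 gene was higher without each gene's highest cell. Ifi47, an interferon-inducible GTPase, had 44.0 and 26.4 CPM in Il17f single producers and Il17a producers of the library labelled NFATc1_KO, and 63.0 and 29.0 CPM in the library labelled WT. Its log2 ratio in the library labelled NFATc1_KO was -0.26 in cells under that median. Gbp2, a guanylate-binding protein, had 16.6 and 4.45 CPM and 29.2 and 17.8 CPM in that order, from 12 and 31 Il17f single producers. Gbp4, of the same family, had 5.38 and 2.50 CPM in the library labelled NFATc1_KO and 10.9 and 5.84 CPM in the library labelled WT.

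Of 26 measured genes of glycolysis and the hypoxia response 0 were higher and 2 were lower, namely Bnip3, which acts in the removal of mitochondria, and Ddit4, an inhibitor of mTORC1. That count was 0 with a pseudocount of 5 CPM and in cells under the median of S and G2/M UMIs, and 3.21% of all measured genes were lower. Bnip3 had 0.978 and 15.9 CPM in Il17f single producers and Il17a producers of the library labelled NFATc1_KO, from 2 of the first, and 4.01 and 7.79 CPM in the library labelled WT. None of the 15 TGF-beta pathway genes passed in either direction in both libraries. These genes were picked out after their values were seen.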
